A study of Rattus norvegicus with 6 samples.

Results

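The aldehyde dehydrogenases described here are Aldh1a1, Aldh1a7, Aldh1b1, Aldh2, Aldh3a2, Aldh4a1, Aldh6a1, Aldh7a1, Aldh8a1 and Aldh9a1, 10 of the 19958 genes on a rat expression array. They were taken as every probe whose gene symbol in the deposited table is one of these names, which gave 12 of 24272 probes with a gene ID. The group was chosen because Aldh1a1 and Aldh1a7 were much lower after iron deprivation, so those decreases are given as a description and support nothing further. The 6 samples were each run on 1 one-colour array of a single slide. FAO cells, an established rat liver cell line, were left untreated (0 µM) or given 100 µM deferoxamine (DFO), an iron chelator, for 24 h, and the RNA of 3 cultures was pooled for each array. Wistar rats, called mice in part of the labels, ate the purified AIN-93G diet either with its iron or without iron for 4 weeks, and liver and kidney RNA of 6 animals was pooled for each diet and tissue. Age, sex and genotype beyond the strain were not given in the sources used here. Each group is therefore 1 array of pooled RNA, which leaves no replicate check, and no p-value is given.

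Aldehyde dehydrogenases oxidise aldehydes to carboxylic acids with NAD or NADP, and so remove reactive aldehydes made from alcohols, lipids, amino acids and vitamins. Aldh1a1 is the cytosolic retinal dehydrogenase that makes retinoic acid, and Aldh1a7 is a closely related rodent enzyme. Aldh1b1 and Aldh2 are mitochondrial enzymes that clear acetaldehyde, Aldh3a2 oxidises long-chain fatty aldehydes, and Aldh4a1, Aldh6a1, Aldh7a1, Aldh8a1 and Aldh9a1 each serve a step of amino acid breakdown or carnitine synthesis. Liver and kidney are major sites of all of these pathways.

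Promoter windows from RefSeq (assembly GRCr8), 250 bases before to 50 bases after the gene start, were matched by gene symbol for 8 of the 10 genes. Aldh1a7 and Aldh2 have no entry under those symbols in that table. The windows of Aldh1a1 (chr1:227537370-227537669, plus strand) and Aldh8a1 (chr1:18003257-18003556, plus strand) are shown because, of the 3 genes at least 2-fold lower in DFO-treated FAO cells, these are the ones with an entry, and because they share the longest identical stretch of any pair. Capitals mark the octamer ATGCAAAT and, in Aldh1a1, the CCAAT box.
Aldh1a1: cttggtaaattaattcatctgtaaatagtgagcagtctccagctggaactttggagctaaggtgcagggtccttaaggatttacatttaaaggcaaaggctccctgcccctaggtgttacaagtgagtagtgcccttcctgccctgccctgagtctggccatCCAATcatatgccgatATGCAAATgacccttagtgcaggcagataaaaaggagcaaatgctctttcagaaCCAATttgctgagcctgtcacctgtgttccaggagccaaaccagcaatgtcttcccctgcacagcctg
Aldh8a1: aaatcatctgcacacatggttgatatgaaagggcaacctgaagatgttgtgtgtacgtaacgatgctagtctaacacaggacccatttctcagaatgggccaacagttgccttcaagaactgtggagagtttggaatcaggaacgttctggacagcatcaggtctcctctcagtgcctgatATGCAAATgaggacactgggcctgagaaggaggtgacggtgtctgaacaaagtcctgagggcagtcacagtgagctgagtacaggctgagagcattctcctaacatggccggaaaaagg
The stretch gatATGCAAATga, 13 bases, occurs in both windows, and it was found in 6 of 33469 promoters of the same length (0.0179%), both windows included. It was picked as the longest stretch shared by any pair, so that share is only a description. Among the 28 pairs of the 8 windows, the next longest shared stretch was 10 bases and the median was 8. The octamer within it starts 72 bases before the gene start in Aldh1a1 and 69 bases before it in Aldh8a1. Searched on both strands, the octamer was in 595 of 33469 promoters (1.78%) and in 2 of the 8 windows here. It was searched after the shared stretch had been seen, so its presence is only a description. CCAAT was in 6 of the 8 windows and in 37.5% of all promoters, and in Aldh1a1 it starts 88 and 18 bases before the gene start, without overlap with the octamer. The hypoxia response element core ACGTG was in none of the 8 windows and in 19.3% of all promoters. AGGTCA, the half-site of many nuclear receptors, was in the window of Aldh9a1 only (16.2% of all), TATAAA in that of Aldh4a1 only (14.2% of all), and GGGCGG in 3 of them (33.1% of all). No match says only that these letters are not in the window.

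Values below are scaled signals, the background-subtracted brightness of a probe averaged over its spots and scaled between arrays. Differences are on the log2 scale, with ± a standard error pooled from replicate spots of probes of like signal. For probes with 1 spot an array, among them those given for Adh1, Adh4, Crym, Grhpr and Stab2, it rests on other probes alone. That error is technical and covers neither animals nor cultures. All spots of a probe must be well above background on an array for the probe to count so, and a gene counts as higher or lower when its difference is at least 2-fold. Where 1 of the arrays compared was not well above background, the difference is a bound, written as at least N-fold. The share of probes well above background ran from 37.7% to 48.8% over the arrays, and repeated spots disagreed over patches of 31 of 264 blocks on the control liver array, 12 on the DFO-treated FAO array, 2 on the control kidney array and none on the others. None of the 132 spots of the 12 aldehyde dehydrogenase probes lay in such a block, was flagged as an outlier or was saturated. The tissue labels held against their markers: Alb, serum albumin, read 86391 on the control liver array and was not well above background in kidney, while Umod, made by the kidney tubule, read 200247 on the control kidney array and was not well above background in liver or FAO cells. All 12 hepatocyte markers were well above background on both FAO arrays.

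In DFO-treated FAO cells, 3 of the 10 genes were at least 2-fold lower (Aldh1a1, Aldh1a7 and Aldh8a1) and none was higher. Over all genes measured in FAO cells, 6.44% were at least 2-fold lower and 4.05% higher (10.5% together), and since the genes were chosen on this contrast nothing is read from the comparison. With the spots of noisy blocks left out, 423 of 10551 genes were at least 2-fold lower and 422 higher, against 689 and 433 of 10696 with all spots, and the members lower still numbered 3. All 10 differences were below 0, with a median of -0.54 and a range from -3.47 to -0.02 against a median of 0.03 over 10696 genes. Under 3 other scalings and with the authors' log2 values 9 of 10 stayed below 0, Aldh7a1 being the exception, and under another background correction 7 of 10 did.

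In liver of rats on the iron-free diet, Aldh1a1 alone was at least 2-fold lower, 1 of 9 genes measured, where 3.01% of all genes were lower and 6.52% higher (9.53% together). Of the other measured genes, 7 were below 0 and Aldh6a1 was above it, with a median over the 9 of -0.63 against 0.02 over 10172 genes. The direction of these smaller differences depended on the scaling. When each array was scaled to the median of its own probes well above background, all liver differences moved up by 0.58, 5 of 9 were below 0 with a median of -0.05, and the share of called genes that were higher went from 68.4% to 96.5%. Aldh1a1 stayed at least 2-fold lower there, at -2.06.

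In kidney, none of the 9 measured genes reached 2-fold, where 1.26% of all genes were lower and 3.11% higher (4.37% together). Of these, 7 were below 0 and 2 above, with a median of -0.11 against -0.03 over 8952 genes. The same change of scaling moved kidney differences by 0.20 and left 3 below 0 and 6 above, and the share of called genes that were higher went from 71.1% to 83.6%.

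**Figure D1:**
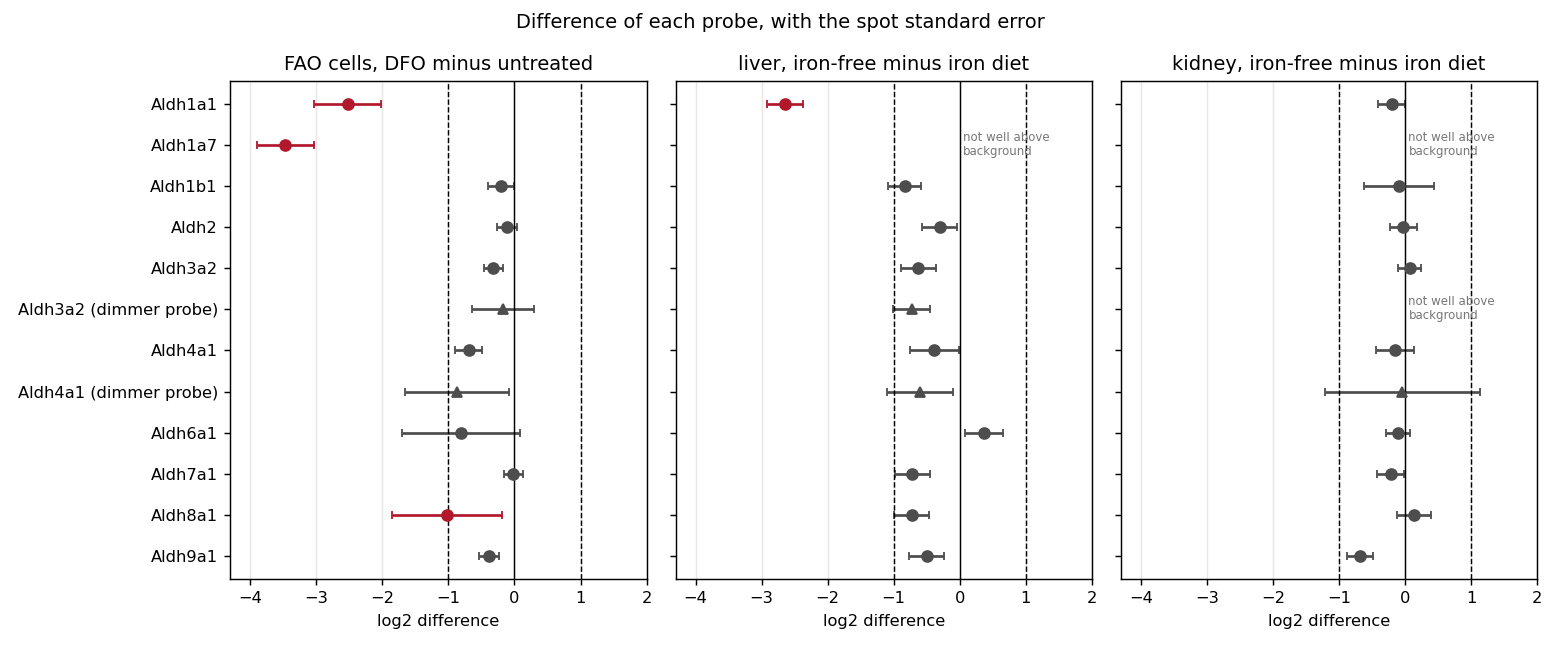
Log2 difference of each of the 12 probes in FAO cells (DFO minus untreated), liver and kidney (iron-free minus iron diet), with bars of ± 1 spot standard error. Dashed lines mark 2-fold, red points the genes at least 2-fold lower, and triangles the dimmer of a gene's probes. Aldh1a1 sits at -2.53 in FAO cells and -2.64 in liver but at -0.20 in kidney. Scaled to each array's own median, liver and kidney points move up by 0.58 and 0.20.

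**Figure D2:**
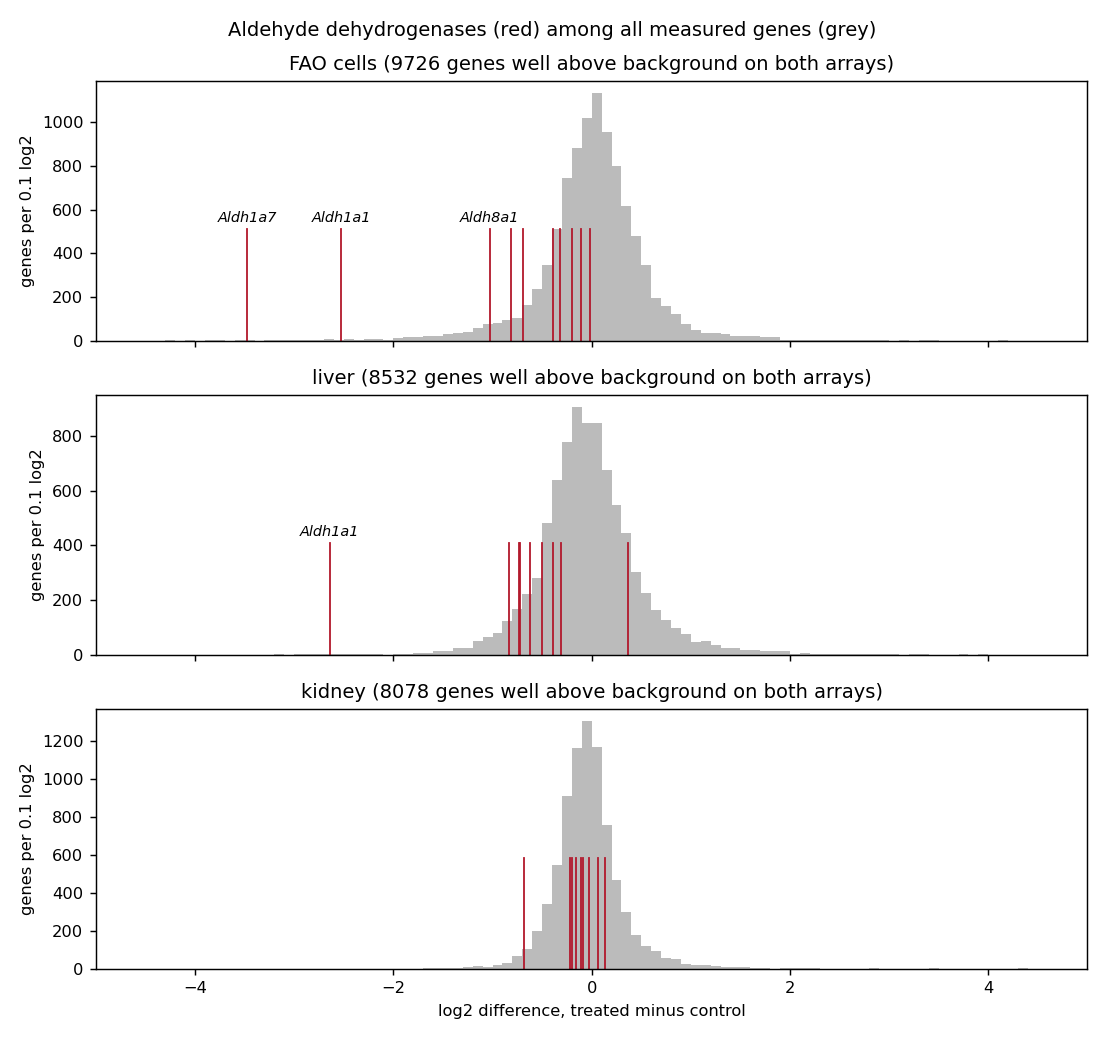
Number of genes per 0.1 log2 of difference (grey) over all genes well above background on both arrays of each comparison, with the aldehyde dehydrogenases as red lines. Aldh1a7 and Aldh1a1 lie in the far lower tail in FAO cells, Aldh1a1 does so in liver, and the lowest in kidney is Aldh9a1 at -0.68.

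Aldh1a1 (gene ID 24188) had a signal of 8690 in control liver, 1391 in iron-free liver, 32097 in control kidney, 27896 in iron-free kidney, 1546 in untreated FAO cells and 268 in DFO-treated FAO cells. The probe was thus brightest in kidney on either diet and dimmest in DFO-treated cells, and untreated FAO cells and iron-free liver lay close together between them. It was 6.25-fold lower in iron-free than in control liver (-2.64 ± 0.27), and differences between single spots ran from -2.77 to -2.52. In FAO cells it was 5.76-fold lower with DFO (-2.53 ± 0.51), with single spots from -2.60 to -2.46. In kidney the difference was -0.20 ± 0.20, a ratio of 1.15, and single spots ran from -0.26 to -0.14. Counted from the largest decrease, Aldh1a1 stood at place 6 of 8532 genes well above background on both liver arrays, at place 32 of 9726 in FAO cells and at place 2226 of 8078 in kidney. The decrease was present in the chelator-treated cell line and in the liver of the animals, but not in their kidney, where the RNA level was highest. The difference between the liver and kidney responses has no test with 1 array a group. In pooled tissue RNA, fewer cells that express a gene and less RNA per cell cannot be told apart.

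FAO cells and liver share no array, so their lists of lower genes can be set side by side. Of 8826 genes measured in both, 491 were at least 2-fold lower in FAO cells and 212 in liver. Of these, 25 were lower in both. That is 5.09% of the FAO list, to be set beside the 212 of 8826 lower in liver. It is 11.8% of the liver list, to be set beside the 491 of 8826 lower in FAO cells. Over all genes measured in each comparison, larger sets than the 8826, 3.01% were at least 2-fold lower in liver and 6.44% in FAO cells. Both lists keep the spots of noisy blocks, and the overlap without those spots was not counted. Aldh1a1 was 1 of the 25 genes lower in both and the 1 gene shown to be at least 4-fold lower in both. Several of the 25 rest on a bound. One of these, with bounds of -2.64 in FAO cells and -1.95 in liver, may be past 4-fold in both as well. Abat, which breaks down GABA and beta-alanine, was in both lists as well, at -1.75 ± 0.97 and -1.02 ± 0.28. Cyp4a1, a fatty acid omega-hydroxylase, was at -1.12 ± 0.53 and -1.16 ± 0.27.

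Aldh1a7 (gene ID 29651) had a signal of 1447 in untreated FAO cells and 130 in DFO-treated cells. On the tissue arrays it read 19.8 in control liver, 21.8 in iron-free liver, 31.5 in control kidney and 21.5 in iron-free kidney, none of them well above background. The RNA was therefore measured in the cell line alone, and untreated FAO cells held at least 32.1-fold more of it than control liver at the main processing. That bound of 5.01 on the log2 scale moved under 4 of 10 alternatives. It was at 3.26 under another background correction (normexp), the lowest of them. With DFO it was 11.1-fold lower (-3.47 ± 0.43), place 11 of 9726 genes, and differences between single spots ran from -3.62 to -3.33. The Aldh1a7 probe was at background on the kidney arrays, where the Aldh1a1 probe was brightest, so RNA of Aldh1a1 gave no measurable signal on the Aldh1a7 probe there. Whether Aldh1a7 RNA adds to the Aldh1a1 probe in FAO cells was not tested.

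**Figure D3:**
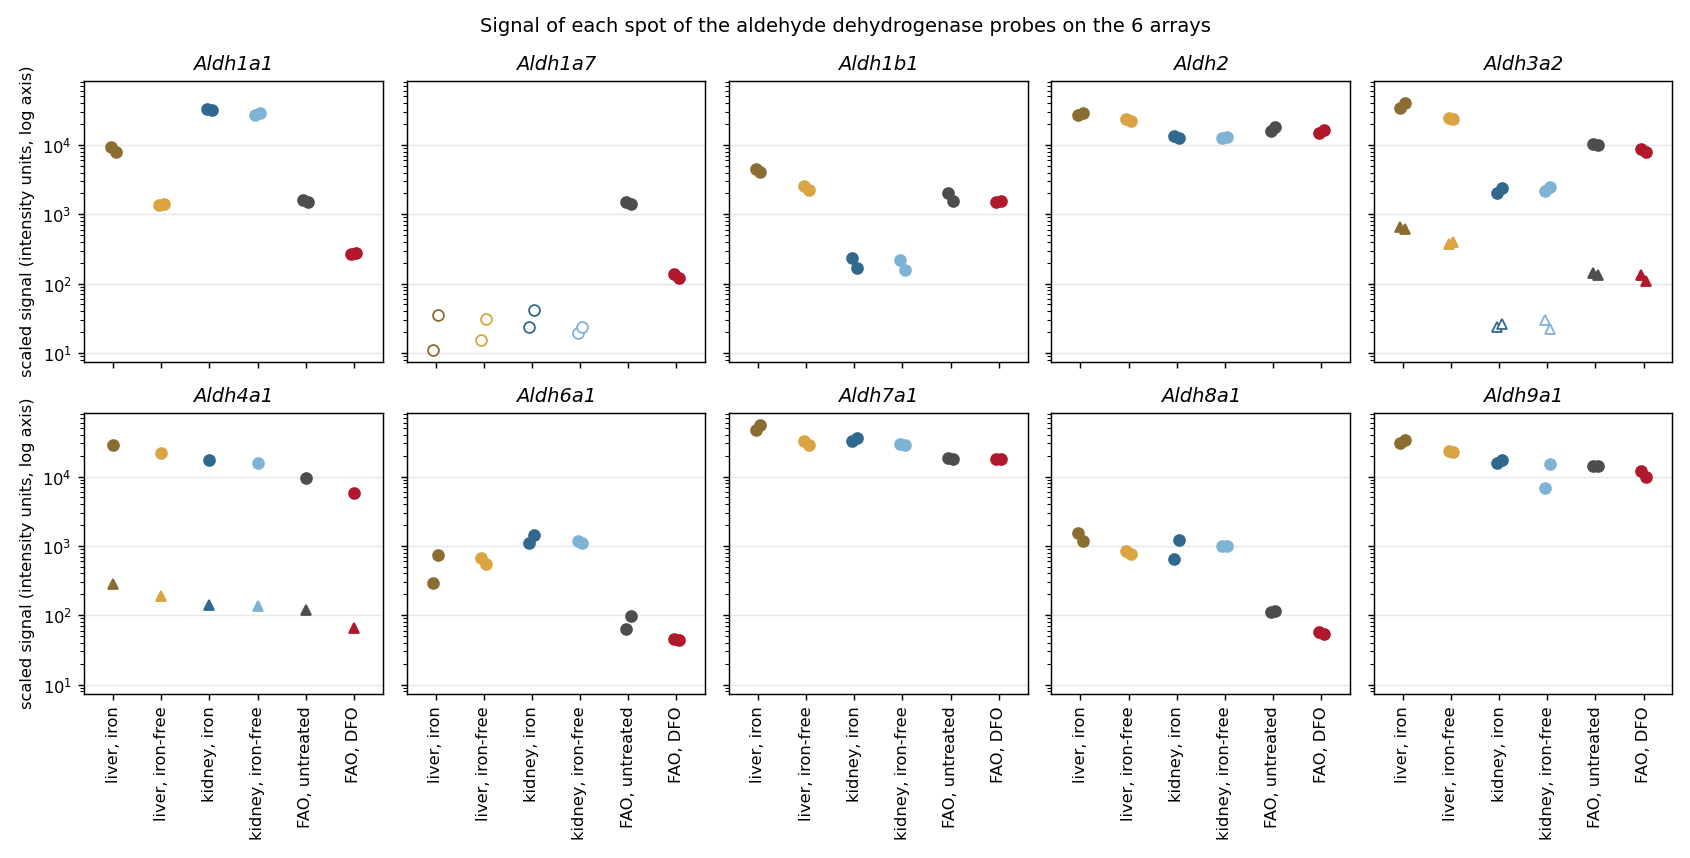
Scaled signal of each spot (log axis) on the 6 arrays, a panel per gene. Filled symbols are well above background and open symbols are not, and triangles are the dimmer probe of Aldh3a2 and Aldh4a1. Spots of Aldh1a1 and Aldh1a7 separate fully between treated and untreated FAO cells, and those of Aldh6a1 in control liver and Aldh9a1 in iron-free kidney lie far apart from each other.

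Both mitochondrial acetaldehyde enzymes differed little with DFO. Aldh1b1 (gene ID 298079) had a signal of 1756 in untreated and 1529 in DFO-treated FAO cells (-0.20 ± 0.20), and its spots overlapped between the 2 arrays. In liver it went from 4250 to 2383 on the iron-free diet (-0.83 ± 0.25), without overlap of spots but within 2-fold, and in kidney from 198 to 186 (-0.09 ± 0.53). Aldh2 (gene ID 29539), the main acetaldehyde dehydrogenase of liver, had 16860 and 15609 in FAO cells (-0.11 ± 0.15), 28126 and 22768 in liver (-0.30 ± 0.27) and 13021 and 12764 in kidney (-0.03 ± 0.20). Its differences in all 3 comparisons were small, and each changed sign under 1 of 10 alternatives.

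Aldh3a2 (gene ID 65183), the fatty aldehyde dehydrogenase of the endoplasmic reticulum, was measured by 2 probes. The brighter probe had 36943 in control and 23943 in iron-free liver (-0.63 ± 0.27), 10278 and 8231 in FAO cells (-0.32 ± 0.15), and 2210 and 2318 in kidney (0.07 ± 0.18). The dimmer probe had 634 and 383 in liver (-0.73 ± 0.28), 136 and 121 in FAO cells (-0.17 ± 0.47), and was not well above background in kidney. Both probes put Aldh3a2 below 0 in iron-free liver, and each treatment difference that was measured lay within 2-fold.

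Among the enzymes of amino acid breakdown, Aldh4a1 (gene ID 641316), which turns the proline product pyrroline carboxylate into glutamate, had 9409 in untreated and 5814 in DFO-treated FAO cells (-0.69 ± 0.21). Its signal was 28110 and 21523 in liver (-0.39 ± 0.38) and 17404 and 15602 in kidney (-0.16 ± 0.29). A dimmer probe gave -0.87 ± 0.78, -0.60 ± 0.50 and -0.04 ± 1.17 in the same order. Each of these probes has 1 spot an array, so their error rests on other probes of like signal.

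Aldh6a1 (gene ID 81708), the methylmalonate semialdehyde dehydrogenase of valine breakdown, had 78.6 in untreated and 44.9 in DFO-treated FAO cells (-0.81 ± 0.89). It read 468 and 604 in liver and 1241 and 1147 in kidney (-0.11 ± 0.18). The liver difference of 0.37 ± 0.29 was the 1 positive value among the genes measured there, but the spots on the control liver array lay 2.54-fold apart. Differences between single liver spots ran from -0.45 to 1.19, and the brighter spots of each array gave -0.16, so no direction can be given.

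Aldh7a1 (gene ID 291450), the aminoadipic semialdehyde dehydrogenase of lysine breakdown, had 18110 and 17916 in FAO cells (-0.02 ± 0.15), a difference whose sign turned in 5 of 10 alternatives. In liver it went from 50393 to 30591 (-0.72 ± 0.27) and in kidney from 33872 to 29156 (-0.22 ± 0.20). Its spots did not overlap between diets in either tissue, and both differences were within 2-fold.

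Aldh8a1 (gene ID 685750), the aminomuconate semialdehyde dehydrogenase of the kynurenine pathway, had 113 in untreated and 55.2 in DFO-treated FAO cells. It was 2.04-fold lower (-1.03 ± 0.83), just past the 2-fold line, with single spots from -1.08 to -0.98. Scaled to each array's own median it was at -0.98, and under the other background correction at -0.44, both short of 2-fold. In liver it went from 1338 to 806 (-0.73 ± 0.26) and in kidney from 892 to 982 (0.14 ± 0.26), where spots overlapped.

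Aldh9a1 (gene ID 64040), which oxidises trimethylaminobutyraldehyde on the way to carnitine, had 14207 and 10877 in FAO cells (-0.39 ± 0.15) and 32360 and 22867 in liver (-0.50 ± 0.27). In kidney it read 16442 on the iron diet and 10236 on the iron-free diet (-0.68 ± 0.20), the lowest kidney difference of the 9 genes measured there. The 2 spots on the iron-free kidney array differed 2.23-fold, and the brighter spots of both arrays gave a difference of -0.16.

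Several of these genes differed widely between the control tissues. Between control liver and control kidney, 3 of the 9 that were measured lay at least 2-fold higher in liver and 2 lower, where 14.9% of all genes were higher and 26.6% lower (41.5% together). Aldh1b1 was 21.5-fold higher in liver (4.42 ± 0.45), Aldh3a2 16.7-fold (4.06 ± 0.29, and at least 6.04-fold by its dimmer probe) and Aldh2 2.16-fold (1.11 ± 0.29). Aldh1a1 was 3.69-fold lower in liver than in kidney (-1.88 ± 0.29) and Aldh6a1 2.65-fold lower (-1.41 ± 0.31). The control liver spots of Aldh6a1 lay 2.54-fold apart. Its single-spot differences ran from -2.28 to -0.54, and the brighter spots of each array gave -0.93, short of 2-fold. Aldh4a1, Aldh7a1, Aldh8a1 and Aldh9a1 were within 2-fold, at 0.69 ± 0.41, 0.57 ± 0.29, 0.58 ± 0.34 and 0.98 ± 0.29. The dimmer Aldh4a1 probe was just past 2-fold at 1.01 ± 0.87, and the spots of Aldh8a1 overlapped between the 2 tissues. Other scalings moved the difference by up to 0.44 over all genes and the share of calls higher in liver from 35.8% to as much as 54.1%, and no gene of the 9 changed sign. With each array scaled to its own median, 7 of the 9 were at least 2-fold higher in liver and 1 lower, and Aldh6a1 fell short at -0.97. Under normexp Aldh6a1 (-0.98) and Aldh2 (0.94) both fell short of 2-fold.

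Untreated FAO cells held less of most of these RNAs than control liver, the same control liver array as above. Of 10 genes, 8 were at least 2-fold lower, Aldh1a7 was higher, and Aldh2 was within 2-fold (-0.74 ± 0.27), where 27.8% of all genes were lower and 27.7% higher (55.5% together). The largest decreases were those of Aldh8a1, 11.9-fold lower (-3.57 ± 0.32), Aldh6a1, 5.95-fold lower (-2.57 ± 0.47), and Aldh1a1, 5.62-fold lower (-2.49 ± 0.27). For Aldh6a1, with control liver spots far apart, single-spot differences ran from -3.54 to -1.60. Aldh3a2 was 3.59-fold, Aldh4a1 2.99-fold, Aldh7a1 2.78-fold, Aldh1b1 2.42-fold and Aldh9a1 2.28-fold lower. With each array scaled to its own median, all genes moved up by 0.58 and the share of calls that were higher went from 49.8% to 67.1%. At that scaling 5 of the 10 genes were at least 2-fold lower instead of 8, since Aldh1b1 (-0.70), Aldh7a1 (-0.90) and Aldh9a1 (-0.61) fell short of it, and 9 of 10 were below 0. Under normexp, another background correction, 7 were at least 2-fold lower, with Aldh7a1 at -0.97.

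Of the other aldehyde dehydrogenase genes, 9 were on the array. Aldh1l1, the cytosolic formyltetrahydrofolate dehydrogenase, had 845 in untreated and 317 in DFO-treated FAO cells and was 2.66-fold lower (-1.41 ± 0.39), the 1 of 7 measured that reached 2-fold. It was at -0.85 ± 0.25 in liver and -0.28 ± 0.25 in kidney. The mitochondrial Aldh1l2 was at -0.49 ± 0.52 in FAO cells and -0.27 ± 0.26 in liver, and Aldh5a1, the succinic semialdehyde dehydrogenase, at -0.28 ± 0.27, -0.04 ± 0.27 and -0.13 ± 0.27 in FAO cells, liver and kidney. Aldh18a1, which makes pyrroline carboxylate from glutamate, was at -0.66 ± 0.39 in FAO cells, Aldh3b1 at -0.52 ± 0.20, Aldh16a1 at 0.36 ± 0.15 and Aldh3a1 at 0.65 ± 0.57. The retinal dehydrogenases Aldh1a2 and Aldh1a3 were not well above background on any of the 6 arrays, so Aldh1a1 was the 1 measured member of the Aldh1a group in liver and kidney. The median of these other genes was -0.49 in FAO cells, -0.27 over 5 in liver and -0.03 over 4 in kidney.

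Of 24 retinoid genes other than the aldehyde dehydrogenases measured in liver, 3 were at least 2-fold lower, all alcohol dehydrogenases, and 1 was higher, with a median of -0.12. Adh4 was 5.33-fold lower (-2.42 ± 0.61, and -2.17 by a second probe), Adh1 3.12-fold (-1.64 ± 0.38) and Adh7 2.73-fold (-1.45 ± 0.27), and these enzymes oxidise retinol and other alcohols to the aldehydes on which aldehyde dehydrogenases act. Adh5, the glutathione-dependent formaldehyde dehydrogenase, was within 2-fold at -0.49 ± 0.27 in liver, -0.30 ± 0.15 in FAO cells and 0.04 ± 0.20 in kidney, and Adh6 had no measured difference in liver, FAO cells or kidney. Ces1d, a carboxylesterase, was 4.97-fold higher in liver (2.31 ± 0.25) and 4.10-fold higher in kidney (2.03 ± 0.29). In kidney Adh1 was at 0.02 ± 0.29, Adh4 and Adh7 were not well above background, and Rdh16, a retinol dehydrogenase, was 2.62-fold higher (1.39 ± 0.43). In FAO cells Adh1 was at -0.01 ± 0.21 and Adh7 at -0.99 ± 0.16, Adh4 was not well above background, and Rdh7 was the 1 of 18 measured at least 2-fold higher (1.25 ± 0.21) with none lower, or 1 lower without the spots of noisy blocks. The retinoid medians were -0.05 in FAO cells and -0.21 over 17 genes in kidney.

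Among other enzymes that handle alcohols and aldehydes, which include those Adh genes, 5 of 21 measured in FAO cells were lower and 2 higher, with a median of -0.33. Cyp2e1, the ethanol-oxidising cytochrome, was 3.49-fold lower (-1.80 ± 0.12 over 10 spots) and Akr1c14, a hydroxysteroid dehydrogenase, 3.30-fold lower (-1.72 ± 0.39). Sord, sorbitol dehydrogenase, read -2.76 ± 0.39, but with its spot in a noisy block left out it was at -0.52. In liver 3 of 24 were lower, the Adh genes named above, and 1 was higher, the aldo-keto reductase Akr1b8 (15.7-fold). In kidney none of 20 reached 2-fold, and the medians were -0.18 in liver and -0.14 in kidney.

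Partner enzymes of the amino acid pathways were at least 2-fold lower at few genes, but most were below 0 at this scaling. For branched-chain amino acids 21 of 22 were below 0 in FAO cells and 22 of 24 in liver (medians -0.44 and -0.36). For lysine these counts were 9 of 12 and 12 of 13 (-0.38 and -0.29), and for proline 7 of 10 and 7 of 12 (-0.45 and -0.21). Over all genes 47.0% in FAO cells and 48.0% in liver were below 0. In branched-chain amino acid breakdown, 1 of 22 measured in FAO cells and 1 of 24 in liver was lower, Abat in both, and none of 24 was in kidney. In lysine breakdown, Dhtkd1 was at least 3.34-fold lower and Crym 2.14-fold lower (-1.10 ± 0.28) in FAO cells, 2 of 12, and none of 13 differed 2-fold in liver or in kidney. In proline metabolism, 3 of 10 were lower in FAO cells. Of these, Arg1, arginase, was at -1.05 ± 0.21, while Grhpr (-3.80 ± 0.54) and Pycr1 (at least 2.74-fold lower) had spots in noisy blocks. Without those spots Pycr1 was at -0.88, the probe of Grhpr had none left and its other probe gave -0.07, which leaves 1 of 9 lower. In iron-free liver Oat, ornithine aminotransferase, was 3.50-fold higher (1.81 ± 0.27).

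Haao, which precedes Aldh8a1 in the kynurenine pathway, was 2.90-fold lower in FAO cells (-1.54 ± 0.51), 1 of 11, and Nmnat1, an NAD synthesis enzyme, was 2.11-fold lower in liver (-1.08 ± 0.58), 1 of 16. In carnitine and polyamine metabolism, Sat1, which acetylates polyamines, was 2.23-fold higher in FAO cells (1.16 ± 0.29), 1 of 14, and Crat, carnitine acetyltransferase, 2.06-fold lower in liver (-1.04 ± 0.25), 1 of 16. In kidney none of 12 kynurenine and none of 14 carnitine and polyamine genes reached 2-fold. With the spots of noisy blocks left out, Kmo, kynurenine 3-monooxygenase, which was not measured with all spots in, was at -1.10 in kidney, 1 of 13.

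Fatty alcohol and omega-oxidation enzymes, the partners of Aldh3a2, had the lowest liver median of these lists, -0.54 over 18 genes, with 4 lower and 1 higher. Cyp4a3 was 2.67-fold lower (-1.42 ± 0.27), Ehhadh, a peroxisomal beta-oxidation enzyme, 2.46-fold (-1.30 ± 0.28) and Cyp4a1 2.23-fold (-1.16 ± 0.27). In FAO cells 4 of 16 were lower with a median of -0.33. Cyp4a1 (2.17-fold) and Cyp4a8 (2.08-fold, -1.06 ± 0.27) were among them, and Agmo was at least 2.47-fold lower but at -0.49 without a noisy spot. In kidney Far1, which makes fatty alcohols, was at least 3.48-fold higher, 1 of 15, and the median was -0.11.

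**Figure D4:**
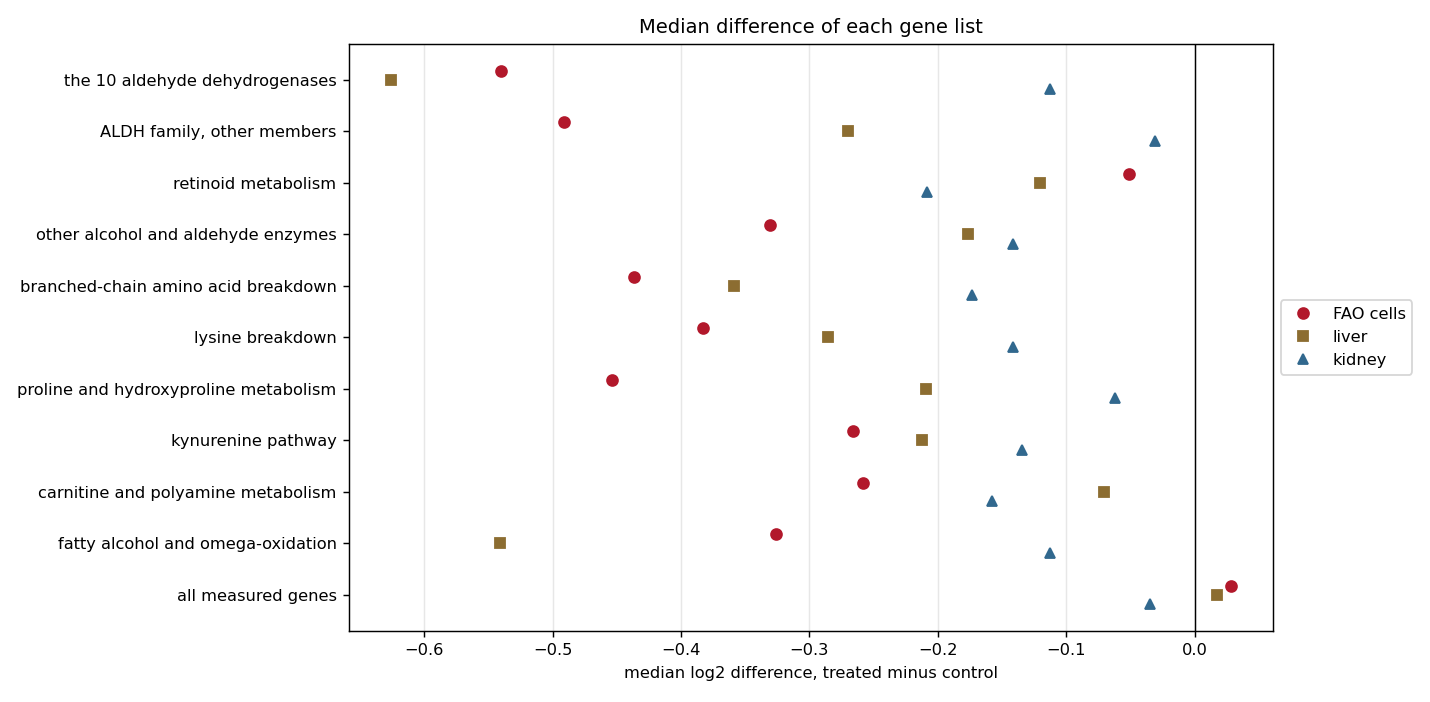
Median log2 difference of each pathway gene list in FAO cells, liver and kidney, beside the 10 aldehyde dehydrogenases and all measured genes. The aldehyde dehydrogenases, chosen on these data, have the lowest of the medians plotted in FAO cells (-0.54) and in liver (-0.63), and all pathway list medians plotted lie below 0 at this scaling. Marker lists of cell types are not plotted. Scaled to each array's own median, differences move up by 0.58 in liver and by 0.20 in kidney, and the medians of the pathway lists were not computed there.

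The gene most like Aldh1a1 over the 6 arrays was Trpm6, a magnesium channel and kinase (Pearson r = 0.997 of log2 level), followed by Chmp4c (0.992), an ESCRT subunit, Akr7a2 (0.987), an aldehyde-reducing aldo-keto reductase, Hykk (0.979), hydroxylysine kinase, and Pim3 (0.973), a protein kinase. These were the highest of 2826 genes that were well above background on at least 4 arrays and had an SD of at least 1. Trpm6 was 1 of the 25 genes lower in both FAO cells and liver, just past 2-fold in FAO cells, at -1.11 in liver and at -0.04 in kidney, and Pim3 was at -2.86, -1.37 and 0.04. Akr7a2 followed with smaller differences of -0.81, -0.68 and -0.40. Chmp4c in FAO cells, and Hykk in FAO cells and liver, were not well above background on 1 array of those comparisons, so part of their pattern is at background. The 6 points come from 2 tissues and 1 cell line, and tissue differences enter each r together with the treatments.

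For Aldh1a7 the closest were Hirip3 (0.976), Snrpa (0.967), Tmpo (0.962), Rpf2 (0.952) and Cdc20 (0.949) of 2827 genes, and 4 of the 6 Aldh1a7 levels are background. Hirip3 was at -0.94 with DFO, Snrpa at -1.73, Tmpo at -1.14, Rpf2 at -0.85 and Cdc20, an activator of the anaphase-promoting complex, at -1.17. In liver the same genes were at 0.13, 0.78, 0.29, 0.36 and 1.10 on the iron-free diet.

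**Figure D5:**
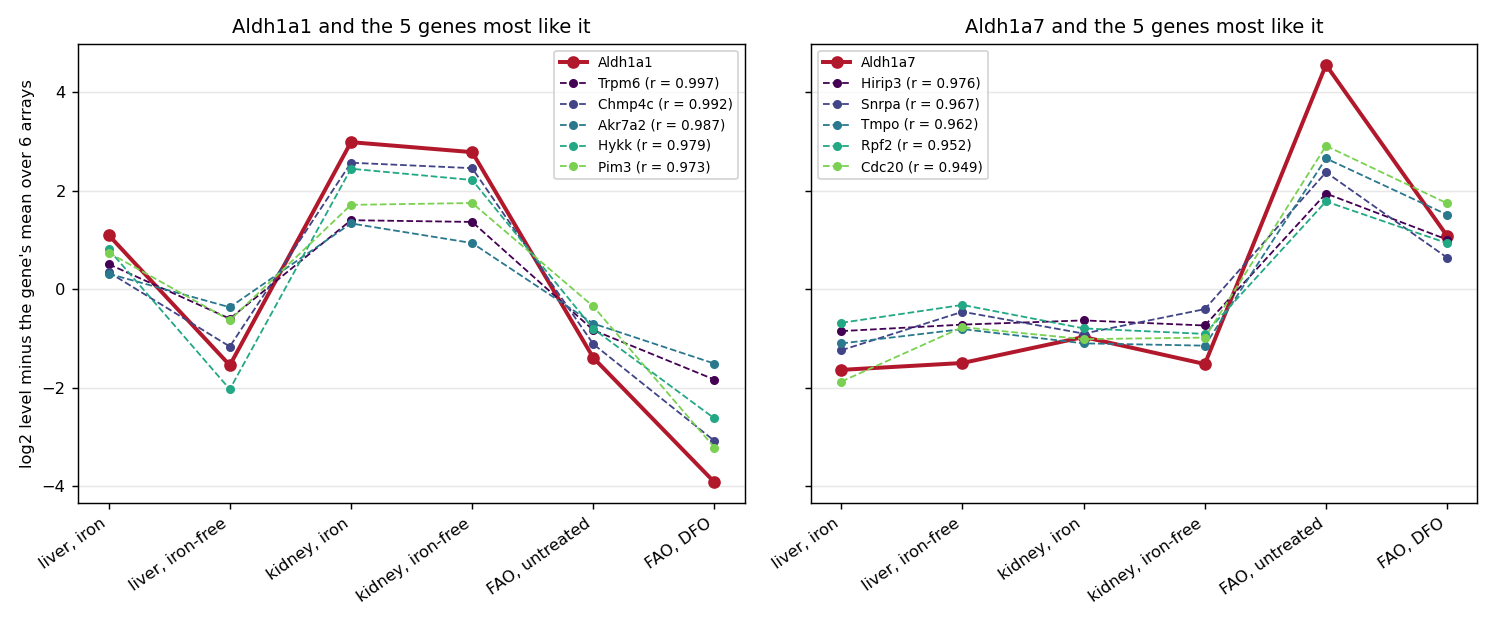
Log2 level on each array minus the gene's mean over the 6 arrays, for Aldh1a1 (left) and Aldh1a7 (right) and the 5 genes with the highest Pearson r to each. Aldh1a1 and its 5 are highest in kidney and lowest in DFO-treated FAO cells, and Aldh1a7 and its 5 are highest in untreated FAO cells.

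Markers of other cell types moved with the diet in liver and in kidney. Erythroid markers were well above background for 6 of 10 genes in control and 8 in iron-free liver, their summed signal went from 329654 to 436211, and 6 of 8 measured were at least 2-fold higher. Leukocyte markers went from 9 to 10 of 12 (sums 23593 and 28577) and stromal and endothelial markers from 10 to 12 of 12 (sums 23995 and 22683). Of 10 leukocyte markers measured in liver 3 were at least 2-fold higher, S100a8 (at least 2.90-fold), S100a9 (1.45 ± 0.43) and Marco (1.07 ± 0.29, both of its spots in noisy blocks), and of 10 stromal markers 1 was, Stab2 (1.01 ± 0.43). In kidney stromal markers went from 8 to 10 of 12 (sums 14040.5 and 19856), with 2 of 10 higher, Col3a1 (1.30 ± 0.25) and Col1a2 (1.27 ± 0.18), and a median of 0.62. Kidney erythroid markers went from 5 to 7 of 10 (sums 235883 and 246435), with a median of 0.70. Of 7 measured there 2 were higher, Ahsp (3.49 ± 0.55) and Hbb (1.18 ± 0.20), but a second Hbb probe was at -0.13. That second probe was at 0.47 in liver, where Hbb was among the 6 called by its brighter probe. Kidney leukocyte markers went from 3 to 5 of 12 (sums 1343 and 1586), with none of 5 higher. In FAO cells Cd14 (1.34 ± 0.21), 1 of 3 leukocyte markers measured, was higher with DFO, as were 2 of 4 erythroid markers, Ahsp (at least 4.86-fold) and Epor (1.44 ± 1.16). Hepatocyte markers were well above background for 12 of 12 genes on both liver arrays, with sums of 1352920 and 1614400. Their median difference was 0.12, while Aldh1a1 was at -2.64. At least 2-fold higher were 2 of the 12, Apoa1 (1.19 ± 0.27) and Tf (1.05 ± 0.27), and none was lower. Tf read 108330 on the control and 224518 on the iron-free liver array, so it weighs on the sums. Leaving out its noisy spot turned the Tf difference to -0.22, and Apoa1 alone stayed higher. In FAO cells the hepatocyte sums were 177041 untreated and 257446 with DFO, with a median difference of -0.09. Tf read 52142 and 103559 on these arrays, so it weighs on these sums too. Of the 12 hepatocyte markers in FAO cells, 2 were lower, Ttr (-1.67 ± 0.16) and Apob (-1.24 ± 0.27), and 1 was higher, Fgb (1.11 ± 0.15). A second Fgb probe, not well above background on 1 of the arrays, gave a bound of 0.05. Ttr fell short of 2-fold, at -0.67, once its noisy spot was excluded. The part of other cell types in the differences of the aldehyde dehydrogenases was not tested.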

How the data were processed

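RNA of 6 samples was measured on 6 one-colour arrays. Per the file headers, the authors scanned array design 028279 and read its spots with Feature Extraction 10.7.3.1 (Agilent), the header naming the rn4 build. Of the deposited intensities, the one used here is the background-subtracted, detrended processed signal. The authors' deposited table also holds intensities and log2 values per probe, and for 97.1% to 98.3% of probes an intensity there equalled the geometric mean of the spots to within 0.0001 of its value. Medians of the authors' log2 columns ran from -4.17 to -3.26, and their centring is not stated. The column names of that table are shifted against its data, so columns were matched through this comparison.

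From the scanner files, log2 intensity was averaged per probe (30367 probes) after 680 to 1215 outlier spots an array had been dropped. Arrays were scaled to their 75th percentile over those 9091 probes that every array measured well above background. The scaled signal restores intensity units with the mean of the 6 percentiles. A bound divides the brighter value by the dim probe's own signal or by the lowest signal detected on that array, whichever is larger. The brightest probe stands for a gene with several. The spot standard error was pooled in 20 bins of signal an array. A block of 16 by 16 spots was called noisy when its spots departed by a median over 0.3 log2 from their probes. Of 19958 genes, 19142 were found in the RefSeq table, 9 of the 10 aldehyde dehydrogenases among them, and the tenth, Aldh1a7, keeps the name in the deposited table.

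The design gives 1 array a group, so genes were called by size alone and the number of arrays limits the precision. Members, gene lists, comparisons and alternatives were chosen with earlier results of these data known. Named are all 10 genes, the measured family members, up to 3 called genes of each list per comparison, the 5 genes most like Aldh1a1 and Aldh1a7, and markers that check the labels, except 1 list gene not reported here; Adh1, Adh4, Adh5, Adh6 and Adh7 values outside that rule, Kmo in kidney, and Cyp4a1 and Abat beside the shared list, were chosen after their values were seen. Alternatives were other scalings, normexp (offset 50), the authors' log2 values, spot and detection filters, the mean of all probes, and a 1.5-fold call. The scanner files used here hold no mean signal, so normexp ran on the median signals. The steps were tested on simulated data. Python 3.11.15, numpy 2.4.6, pandas 2.3.3, R 4.3.3 and limma 3.58.1 were used.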

Additional observations from a re-analysis of the deposited data

How the results depend on the processing

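Of the measured differences of the 10 genes under 10 alternatives, 406 moved by less than the spot standard error, 54 moved by more, and none of those called at 2-fold changed sign. Calling at 1.5-fold gave 5 genes in FAO cells instead of 3, 5 in liver instead of 1 and 1 in kidney instead of 0, and 2385, 2441 and 1091 of all genes instead of 1122, 969 and 391. Accepting a probe with at least 1 spot well above background gave 2169, 1629 and 1071, and no filter gave 2844 in FAO cells, 3206 in liver, 1608 in kidney, 8415 instead of 3871 between liver and kidney, and 13497 instead of 5878 between FAO cells and liver. Under normexp 541 genes were called in liver and 258 in kidney. With each array scaled to its own median, 2198 were called in liver and 8 of the 9 genes between control liver and kidney instead of 5. Leaving out noisy blocks moved the share of FAO calls that were higher from 38.6% to 49.9%. No paired analysis was possible because each group is 1 array.

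The limits are these. RNA was pooled before labelling, so the spread between animals or cultures cannot be seen. The spot error covers 1 slide. Signal over background limits Aldh1a7 in both tissues, the dimmer Aldh3a2 probe in kidney, and Aldh6a1 and Aldh8a1 in FAO cells, where signals were under 120. The control liver array had the most noisy blocks and a median spot SD of 0.44, against 0.19 on the iron-free liver array.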
